A study of Mus musculus with 6 samples.

Results

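Heat shock chaperone genes and their regulator were chosen by symbol: the inducible cytosolic chaperones Hspa1a, Hspa1b, Hsph1, Dnajb1, Hspb1 and Hsp90aa1, the constitutive Hspa8, the mitochondrial pair Hspd1 and Hspe1, and Hsf1. All 10 were found among 21829 genes, and all 10 were among the 12539 whose mean reached 1 FPKM, a level in fragments per length of transcript and per total of mapped fragments. They were measured by RNA sequencing of epididymal fat, a visceral white fat depot, in 3 libraries labelled KO for ZFP251 and 3 labelled wild type (WT). Both groups were male C57BL/6J mice of 20 weeks fed normal diet, with littermates as wild type. The study concerns glucose metabolism and fat cell size in mice lacking this zinc finger protein, and the allele is not given in the sources used here. Values of single libraries stand in the order of their numbers, 1 to 3, in each group.

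Chaperones bind unfolded proteins and help them fold, refold or stay soluble. HSP70 proteins take hold of exposed hydrophobic stretches in a cycle of ATP hydrolysis, J proteins start that cycle, and HSP110 proteins reset it by exchanging the nucleotide. HSP90 finishes the folding of many kinases and receptors, small heat shock proteins hold unfolded clients without ATP, and the barrel formed by HSPD1 with its lid HSPE1 folds proteins inside mitochondria. When unfolded protein builds up, the transcription factor HSF1 forms trimers, binds alternating GAA and TTC units (heat shock elements) and switches on the inducible genes, while Hspa8 is made at all times.

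The elements are shown first because they are sequence that members share and the choice by symbol did not use. Promoters from 250 bases before to 50 bases after the start site were taken from RefSeq on GRCm38.p6 and matched 7 of the 10 genes. Hspa8, Hsp90aa1 and Hsf1 had no entry. Both strands were searched for GAANNTTCNNGAA and its reverse complement TTCNNGAANNTTC, and for the shorter GAANNTTC and TTCNNGAA, which are part of the longer forms. Counting a gene where any of its promoters held the motif, the longer form was found in 3 of the 7 genes, Hsph1, Hspd1 and Hspe1, against 0.567% of the 9868 tested genes with a promoter. The shorter forms were found in 6 of the 7, all but Dnajb1, against 14.0% of those genes. Counted per promoter, 0.603% of all 32851 promoters held the longer form and 15.1% a shorter one. In Hsph1 the longer form lay after the start site, and its upstream shorter form is shown. Hspd1 and Hspe1 leave a shared stretch in opposite directions, so their element is the same one. The Hsph1 stretch overlaps an annotated exon of Hsph1, the Hspe1 one an annotated exon of Hspd1, and the others overlap none. In the stretches below, written 5′ to 3′ along the gene's own strand, capitals mark the GAA and TTC motifs found.
Hspa1a, chr17:34972227-34972286, minus strand: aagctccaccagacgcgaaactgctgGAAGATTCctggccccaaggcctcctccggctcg
Hspa1b, chr17:34959309-34959368, minus strand: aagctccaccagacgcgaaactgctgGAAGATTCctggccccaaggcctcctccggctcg
Hspb1, chr5:135887786-135887845, plus strand: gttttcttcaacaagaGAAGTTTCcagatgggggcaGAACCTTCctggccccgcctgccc
Hsph1, chr5:149636351-149636380, minus strand: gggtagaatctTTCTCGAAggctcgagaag
Hspe1 (and Hspd1), chr1:55088053-55088082, plus strand: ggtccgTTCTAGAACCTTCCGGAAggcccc
Hspa1a and Hspa1b were identical over the stretch shown and at 247 of the 250 upstream bases. Hspb1 had a pair of separate short motifs, and the Hspe1 stretch had 3 overlapping ones that make up the longer form. A match is a description of letters and not a measured binding site.

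Several libraries stood apart. Zfp251, the targeted gene, went against the labels: it had 6.48, 5.86 and 6.48 FPKM in the libraries labelled KO and 3.73, 3.56 and 2.95 FPKM in those labelled WT (log2 difference 0.72, standard error 0.12, limma adjusted p = 0.223; exact two-sided permutation p = 0.1, the smallest that 3 libraries against 3 allow). Directions below are therefore those of the libraries labelled KO. Summed FPKM of 18 multiciliated cell markers was 124, 124 and 55.8 in the libraries labelled KO, against 46 in WT 1, 1.82 in WT 2 and 4.4 in WT 3, where 5 and 7 of the 18 were listed at 0 in WT 2 and WT 3. In WT 3, the 772 tested genes with transcripts under 1000 nt deviated from their own means by a median of 0.571 on the log2 scale, while in the other 5 libraries that median lay between -0.165 and -0.031. Over all genes FPKM summed to 426966, 428924 and 439354 in the libraries labelled KO, and to 472120, 468499 and 637902 in those labelled WT. WT 3 had the largest sum, and the FPKM values given here were not rescaled to equal sums. Summed FPKM of 6 endothelial markers was 298, 286 and 288 in the libraries labelled KO, and 435, 407 and 162 in those labelled WT. For 8 fast skeletal muscle markers it was 20.3, 12.6 and 10.3, and 22.4, 27.7 and 86.9, in the same order. For 6 spermatid markers it was 14.8, 99.3 and 4.97, and 127, 2.14 and 3.86. The part of such cells in the heat shock values was not tested. The 12 adipocyte markers were above 0 in all 6 libraries, and their FPKM summed to 38127, 39295 and 46588 in the libraries labelled KO and to 55788, 52907 and 94911 in those labelled WT. All 12 had lower values in the libraries labelled KO (59.2% of all tested genes). Of these, 7 did so without overlap (12.2% of all tested genes) and 1 at a limma unadjusted p under 0.05 (4.43%). Their median log2 difference was -0.46, and it was not computed with WT 3 left out.

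Mean levels of the heat shock genes over the 6 libraries ran from 2.32 to 301 FPKM, and the order of the genes was nearly the same in both groups. Hspa8 was the most abundant, with 269.9, 294 and 244 FPKM in the libraries labelled KO and 273, 339.6 and 386 FPKM in those labelled WT. Each exceeded every value of the other 9 genes. Next in mean level over the 6 libraries were Hspd1 (122 FPKM), Hspe1 (107 FPKM) and Hspb1 (94.3 FPKM), whose single values overlapped, and then Hsp90aa1 (67.5 FPKM), whose highest value passed the lowest of Hspb1. Dnajb1 (14.8 FPKM), Hsf1 (13.9 FPKM) and Hsph1 (11.5 FPKM) also overlapped each other. The inducible HSP70 genes were lowest, Hspa1b with a mean of 6.35 FPKM and Hspa1a with 2.32 FPKM, and Hspa1b was above Hspa1a in all 6 libraries.

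**Figure D1:**
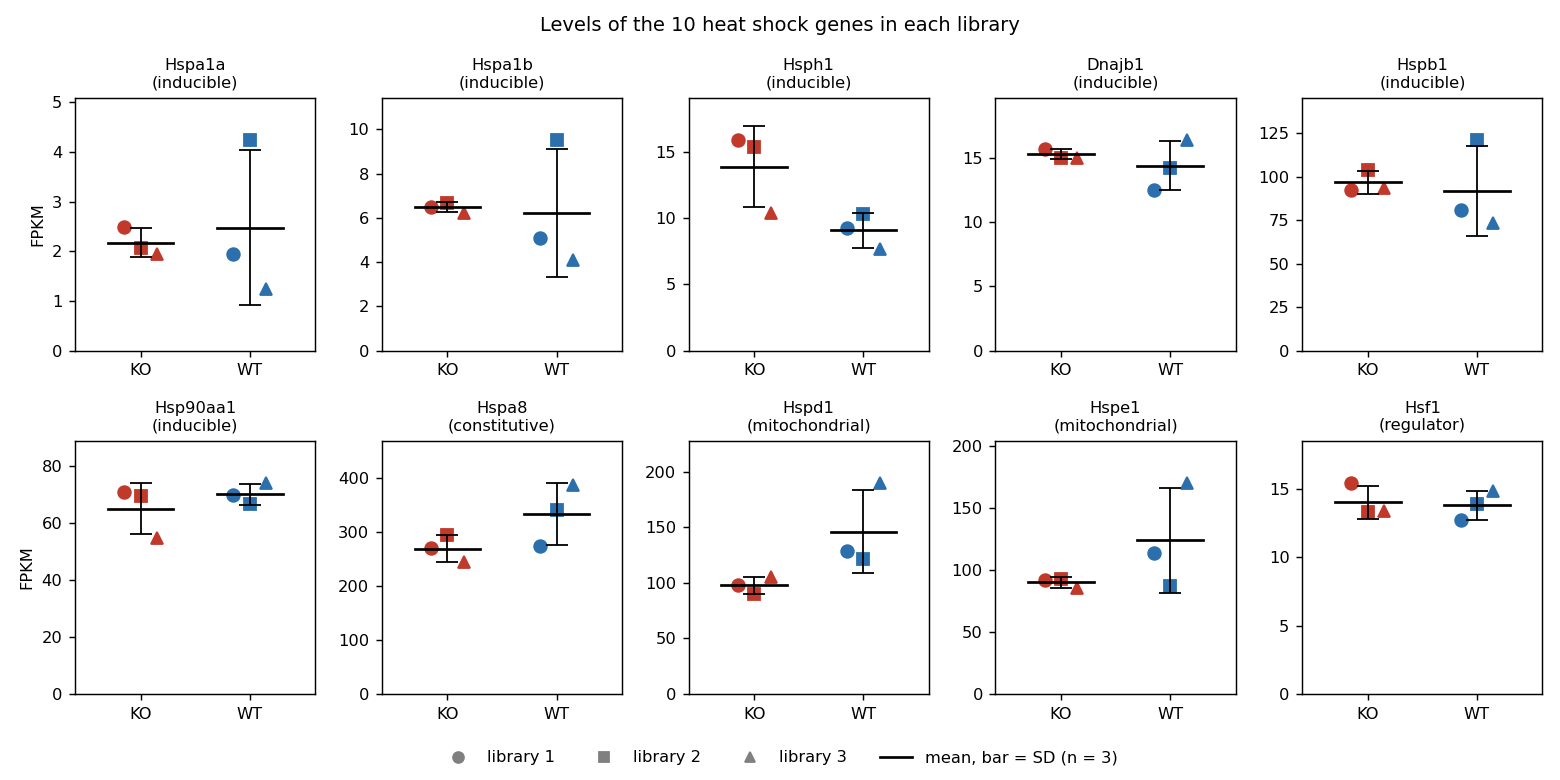
FPKM of each of the 10 heat shock genes, with KO libraries at the left and WT libraries at the right of each panel, markers by library number, and the mean with its SD (n = 3). Hsph1 and Hspd1 are the 2 genes whose groups do not overlap, and the WT points of Hspa1a, Hspa1b and Hspb1 are spread more widely than the KO points.

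None of the 10 genes passed limma's adjusted p of 0.05 between the libraries labelled KO and WT, in a comparison where 0 of 12539 genes passed (0% called). At an unadjusted p under 0.05 there were 2 of the 10, Hsph1 and Hspd1, against 1700 of all tested genes (13.6%). The same 2 were those whose groups did not overlap, against 2789 of all tested genes (22.2%). Those shares are near the background, so they set the heat shock genes no further apart than tested genes at large. That count turned on single libraries: 0 of the 10 had such a p without KO 1 (866 of all tested genes) or without KO 2 (882), and 1, Hspd1, without WT 3 (1716). Without WT 2 there were 5 of the 10, with Hspa1b, Hspb1 and Hspe1 added (2195 of all tested genes), and without WT 1 there were 3, with Hspa8 added (1842). With the multiciliated covariate there were 0 (183 of all tested genes). The marker sums behind that covariate themselves differ between the groups without overlap, though WT 1 (46 FPKM) lay near KO 3 (55.8 FPKM). Standard errors of the 10 genes were larger in that fit, for Hsph1 0.33 against 0.19, so low p-values were harder to reach. In whole tissue, fewer cells of a type and less RNA per cell cannot be told apart, and nothing states that each library came from its own mouse.

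Hspa1a and Hspa1b encode the stress-inducible HSP70 and are near-identical neighbours on chromosome 17. Hspa1a had 2.5, 2.06 and 1.95 FPKM in the libraries labelled KO, and 1.94, 4.24 and 1.25 FPKM in those labelled WT. WT 2 was the highest and WT 3 the lowest of the 6, so that the KO libraries lay inside the WT range. Hspa1b repeated that order at its ends, with 6.51, 6.68 and 6.23 FPKM in the libraries labelled KO, and 5.09, 9.51 and 4.08 FPKM in those labelled WT. The log2 differences were -0.04 for Hspa1a (standard error 0.31, 95% interval -0.77 to 0.68, limma adjusted p = 0.954) and 0.12 for Hspa1b (standard error 0.26, 95% interval -0.50 to 0.74, limma adjusted p = 0.85). Of all 50-base windows of the Hspa1a transcript 58.8% also occur in the Hspa1b transcript, so the split of fragments between them is uncertain and their sum is safer. That sum was 9.01, 8.74 and 8.18 FPKM in the libraries labelled KO and 7.04, 13.7 and 5.33 FPKM in those labelled WT. A single WT library decided the direction: the Hspa1a log2 difference was 0.30 without WT 2 and -0.31 without WT 3.

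Hspb1, the small heat shock protein HSP27 in human nomenclature, followed Hspa1a and Hspa1b from library to library at a far higher level. It had 92.6, 104 and 93.2 FPKM in the libraries labelled KO, and 80.8, 121 and 73.4 FPKM in those labelled WT. WT 2 was again highest and WT 3 lowest, and the log2 difference was 0.11 (standard error 0.20, 95% interval -0.37 to 0.58, limma adjusted p = 0.824). Over the 6 libraries Pearson's r of log2(FPKM + 1) was 0.98 between Hspb1 and Hspa1b and 0.88 between Hspb1 and Hspa1a. These are descriptions over 6 points that share library and depth. The SD of Hspb1 was 6.51 FPKM in the libraries labelled KO and 25.8 FPKM in WT (n = 3 each), and that of Hspa1b was 0.228 and 2.89 FPKM in the same order.

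Hsph1, the HSP110 that exchanges nucleotide on HSP70, was the one inducible gene with every library labelled KO above every WT library. It had 15.9, 15.4 and 10.4 FPKM in the libraries labelled KO, and 9.29, 10.3 and 7.65 FPKM in those labelled WT. KO 3 cleared WT 2 by little, while KO 1 and KO 2 stood well above the rest. The means were 13.9 ± 3.05 FPKM in the libraries labelled KO and 9.08 ± 1.33 FPKM in WT (SD, n = 3 each), a ratio of 1.53. The log2 difference was 0.55 (standard error 0.19, 95% interval 0.11 to 0.99, limma unadjusted p = 0.0222, adjusted p = 0.276), and the exact two-sided permutation p was 0.1. The multiciliated markers given above were also highest in KO 1 and KO 2. With their summed level as a covariate the Hsph1 log2 difference was 0.42 (standard error 0.33, limma adjusted p = 1), and without WT 3 it was 0.44. The gene lies on the minus strand at chr5:149614287-149636376 in GENCODE vM21 on GRCm38.

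For Dnajb1 and Hsp90aa1 the groups overlapped. Dnajb1, the J protein that delivers clients to HSP70, had 15.7, 15 and 15 FPKM in the libraries labelled KO and 12.5, 14.2 and 16.4 FPKM in those labelled WT, the KO values lying inside the WT range. Its log2 difference was 0.09 (standard error 0.12, 95% interval -0.20 to 0.37, limma adjusted p = 0.758). Hsp90aa1, the stress-responsive cytosolic HSP90, had 70.7, 69.4 and 54.6 FPKM in the libraries labelled KO and 69.8, 66.5 and 73.9 FPKM in those labelled WT. KO 3 was the low one, and without it the log2 difference of -0.12 (standard error 0.13, 95% interval -0.44 to 0.20, limma adjusted p = 0.712) was 0.0003. Its constitutive partner Hsp90ab1 was the more abundant of the pair in every library, by 3.7-fold, 4.08-fold and 4.57-fold in the libraries labelled KO and by 3.9-fold, 4.2-fold and 3.87-fold in those labelled WT.

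**Figure D2:**
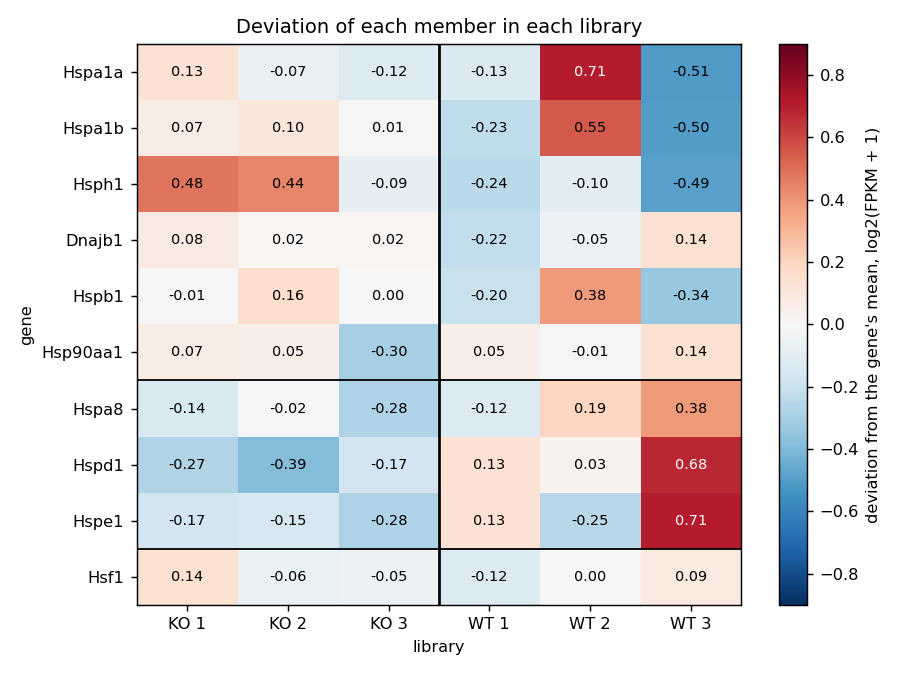
Deviation of each gene in each library from that gene's mean over the 6 libraries, on the log2(FPKM + 1) scale, KO libraries left of the vertical line and WT libraries right of it; horizontal lines part the inducible genes, Hspa8 with the mitochondrial pair, and Hsf1. Hspa1a, Hspa1b and Hspb1 are high in WT 2 and low in WT 3, while Hspa8, Hspd1 and Hspe1 are high in WT 3.

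Hspd1 and Hspe1, the barrel and lid of the mitochondrial chaperonin, had lower means in the libraries labelled KO, and Hspd1 did so without overlap. Hspd1 had 97.8, 90 and 105 FPKM in the libraries labelled KO, and 129, 121 and 189.6 FPKM in those labelled WT. All 3 WT values were higher, and WT 3 was far above the others. The log2 difference was -0.55 (standard error 0.19, 95% interval -1.01 to -0.10, limma unadjusted p = 0.0235, adjusted p = 0.282), with an exact two-sided permutation p of 0.1. Without WT 3 it was -0.35 (limma unadjusted p = 0.00979, adjusted p = 0.349), and the groups still did not overlap. Hspe1 had 92.4, 93.2 and 85.3 FPKM in the libraries labelled KO, and 114, 87.3 and 170.2 FPKM in those labelled WT, where WT 2 lay among the values labelled KO. Its log2 difference was -0.40 (standard error 0.24, 95% interval -0.96 to 0.16, limma adjusted p = 0.502). It was -0.14 without WT 3, -0.62 without WT 2 and -0.16 after a correction for transcript length and GC content. The Hspe1 transcript has 774 nt and that of Hspd1 2423 nt. Hspb1, the other short one at 903 nt, was lowest in WT 3, with a deviation of -0.34 from its mean on the log2 scale. The same correction left Hspd1 at -0.46 (limma unadjusted p = 0.0162, adjusted p = 0.222).

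The ratio of Hspd1 to Hspe1 had overlapping groups, with 1.06, 0.965 and 1.23 in the libraries labelled KO, and 1.13, 1.38 and 1.11 in those labelled WT. Their r over the 6 libraries was 0.89. GENCODE vM21 names 5 pseudogenes of Hspd1 and 6 of Hspe1, which could share fragments with them, and how the authors assigned such fragments is not given in the sources used here.

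Hspa8, the constitutive HSP70, had a mean of 269 ± 24.6 FPKM in the libraries labelled KO and 333 ± 56.7 FPKM in WT (SD, n = 3 each). Its log2 difference was -0.30 (standard error 0.17, 95% interval -0.70 to 0.11, limma adjusted p = 0.494), and KO 2 lay above WT 1. After quantile normalization the difference was 0.03.

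Hsf1, the regulator, was the least variable of the 10, with a coefficient of variation of 7.49% over the 6 libraries against a median of 17.4% over all tested genes. It had 15.4, 13.3 and 13.4 FPKM in the libraries labelled KO, and 12.7, 13.9 and 14.8 FPKM in those labelled WT. The groups overlapped, and the log2 difference was 0.02 (standard error 0.11, 95% interval -0.24 to 0.29, limma adjusted p = 0.937). Its RNA level does not measure HSF1 activity, which depends on trimer formation and phosphorylation of the protein. Hsf1 (plus strand, chr15:76477422-76501913) and Zfp251 (minus strand, chr15:76851609-76871435) lie on the same chromosome, 349695 bases apart. Of the 15 tested genes between them 2 had higher values at an unadjusted p under 0.05 (9.13% of all tested genes), Slc39a4 with a log2 difference of 1.42 and Arhgap39 with 0.45. C030006K11Rik had a lower value at that level, with -0.33 (4.43% of all tested genes). Dgat1, an enzyme of triglyceride synthesis and the nearest of these to Hsf1, averaged 152 FPKM in the libraries labelled KO and 212 FPKM in WT (log2 difference -0.47 at a limma adjusted p of 0.379).

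**Figure D3:**
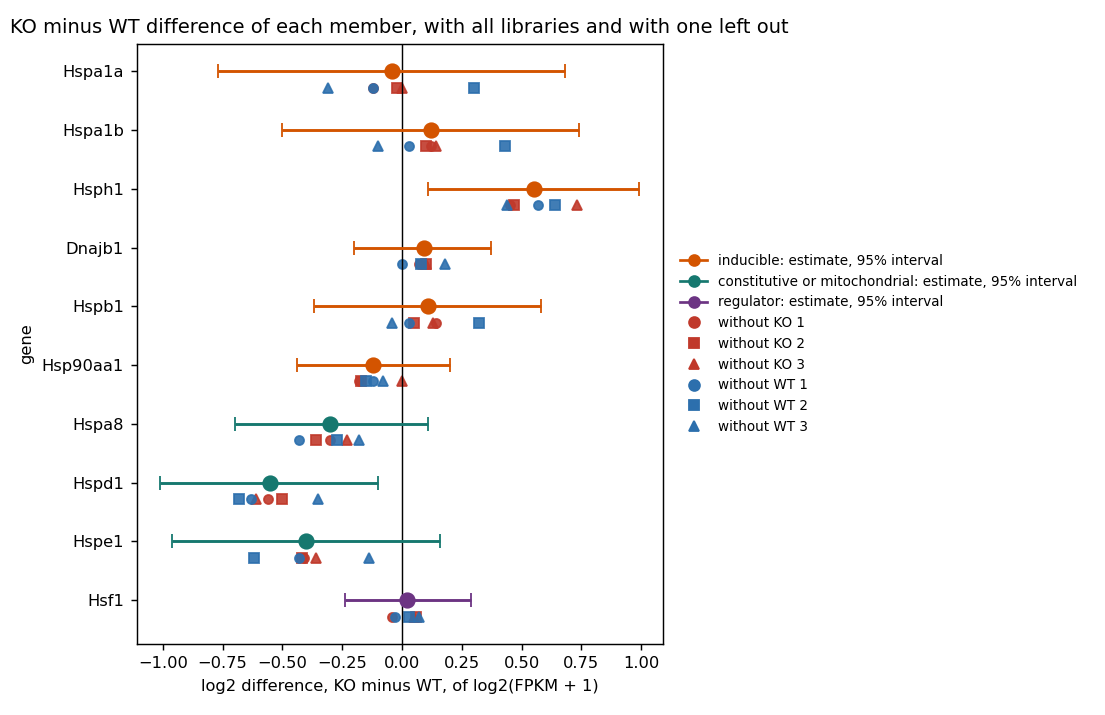
Log2 difference (KO minus WT) of each heat shock gene from limma with its 95% interval, and below each the estimate with 1 library left out, coloured by the group and shaped by the number of that library. The intervals of Hsph1 and Hspd1 lie on one side of 0, and the estimates for Hspa1a lie on both sides of 0, from -0.31 without WT 3 to 0.30 without WT 2.

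Set side by side, the inducible genes and the constitutive and mitochondrial ones differed in their summaries. Hspd1 and Hspe1, put here beside Hspa8, held the longer heat shock element, so this is not a contrast of genes with and without that element. The median log2 difference was 0.10 over the 6 inducible genes (4 higher, 2 lower) and -0.40 over Hspa8, Hspd1 and Hspe1 (all 3 lower), beside -0.05 over all 12539 tested genes, of which 59.2% were lower. The inducible median was -0.06 without WT 3 (2 higher, 4 lower) and 0.31 without WT 2. With 1 library left out, that of Hspa8, Hspd1 and Hspe1 ran from -0.62 without WT 2 to -0.18 without WT 3. With all 6 libraries it was -0.15 after quantile normalization and -0.24 after the length and GC correction, where the inducible median was 0.10 and 0.08. The mean log2(FPKM + 1) of the inducible genes minus that of Hspa8, Hspd1 and Hspe1 was -2.82, -2.85 and -2.99 in the libraries labelled KO, and -3.36, -2.90 and -4.00 in those labelled WT. WT 2 lay among the KO libraries and WT 3 far below the rest, so the groups overlapped. The group means were -2.89 ± 0.0884 in the libraries labelled KO and -3.42 ± 0.553 in WT (SD, n = 3 each), a difference of 0.53, which was 0.24 without WT 3 and 0.79 without WT 2. No test was made on this score, because the genes were chosen with earlier results known.

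Within the HSP70 system the same comparison can be made as a ratio of FPKM. Hspa8 exceeded the sum of Hspa1a and Hspa1b 29.9-fold, 33.6-fold and 29.9-fold in the libraries labelled KO, and 38.9-fold, 24.7-fold and 72.5-fold in those labelled WT. WT 2 was the lowest and WT 3 the highest of all 6. Hsph1 amounted to 5.88%, 5.25% and 4.25% of Hspa8 in the libraries labelled KO, and to 3.4%, 3.03% and 1.98% in those labelled WT, without overlap. Hsph1 by itself already had no overlap (10.1% of all tested genes in that direction), so its ratios are not a separate result. Hspa4, the HSP110 relative of Hsph1 that is made at all times, had means of 27.9 ± 0.925 FPKM in the libraries labelled KO and 31.6 ± 2.43 FPKM in WT (SD, n = 3 each). It exceeded Hsph1 by 1.82-fold, 1.79-fold and 2.61-fold in the libraries labelled KO and by 3.43-fold, 2.83-fold and 4.44-fold in those labelled WT.

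**Figure D4:**
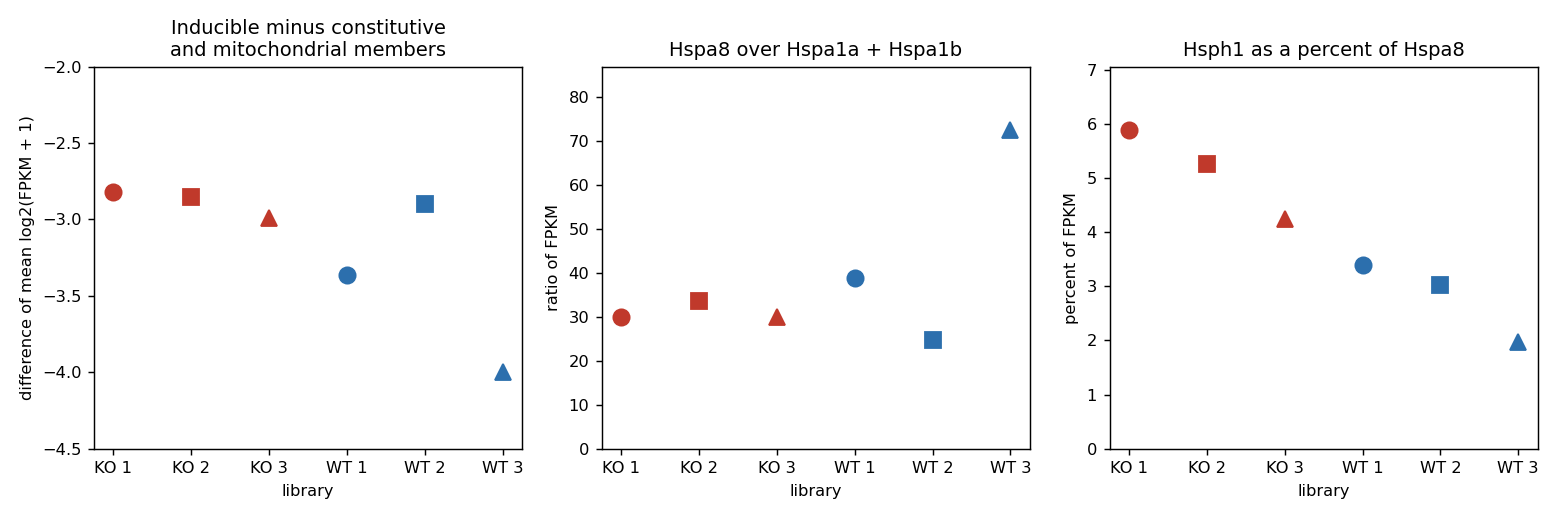
Per library, KO left of WT: the mean log2(FPKM + 1) of the 6 inducible genes minus that of Hspa8, Hspd1 and Hspe1 (left), the FPKM ratio of Hspa8 to Hspa1a plus Hspa1b (middle), and Hsph1 as a percent of Hspa8 (right). In the left and middle panels WT 2 sits beside the KO libraries or beyond them and WT 3 stands apart, and in the right panel all KO points lie above all WT points.

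The inducible genes did not move as 1 block. Among their 15 pairs r over the 6 libraries ran from -0.31 to 0.98 with a median of 0.08, and the high values were those within Hspa1a, Hspa1b and Hspb1. Dnajb1 went most closely with Hsf1, at r = 0.78. Both varied little, with coefficients of variation of 8.94% and 7.49%, against a median of 17.4% over all tested genes. Among Hspa8, Hspd1 and Hspe1 all 3 pairs were positive, from 0.68 to 0.89. Other tested genes were ranked by their likeness to the mean z-score of the inducible genes. Predicted genes, Riken clones, pseudogenes and small RNAs were left out of that ranking. Highest were H2-Ab1 (r = 0.992), Osbpl5 (0.991), Usp54 (0.984), Gapvd1 (0.983), Gfpt2 (0.981) and Eri1 (0.981). With 6 libraries and 12539 genes such values are a ranking only. The 18 immediate early genes, which answer many stimuli within minutes, had a different order of libraries. They summed to 442, 412 and 386 FPKM in the libraries labelled KO, and to 629, 721 and 309.6 FPKM in those labelled WT. WT 2 was the highest here as for Hspa1a, Hspa1b and Hspb1, but WT 1 came next here, while for Hspa1b and Hspb1 it lay below every library labelled KO. None of the 18 had an unadjusted p under 0.05 in the fit of all 6 libraries by group only. Without WT 3, 11 were lower at that level (5.67% of all tested genes), and with any other library left out 0 or 1 were. With the multiciliated covariate 3 were lower at that level (0.79% of all tested genes).

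Other chaperones gave the wider setting. Over 8 lists of cytosolic and mitochondrial chaperones, cofactors and HSF relatives, 71 of 75 genes were tested and 0 passed the adjusted threshold. At an unadjusted p under 0.05, 4 were higher and 7 lower (9.13% and 4.43% of all tested genes in the same order), and 4 higher and 20 lower did not overlap (10.1% and 12.2% of all tested genes in the same order). Of the 7 lower ones 5 were among the 10 tested mitochondrial genes for protein folding and quality control, where 8 were lower without overlap, with a median log2 difference of -0.41. Hspa9, the mitochondrial HSP70, had 107, 111 and 108 FPKM in the libraries labelled KO, and 144, 129 and 211 FPKM in those labelled WT. Its log2 difference was -0.53 (limma adjusted p = 0.306). The disaggregase Clpb had -0.38 and the protease subunit Clpx -0.45. The count of 5 turned on single libraries: it was 1 without KO 1, 1 without KO 2, 2 without KO 3 and 8 without WT 2, where 1.4%, 1.5%, 3.81% and 8.38% of all tested genes were lower at that level. Without WT 3 the median of the 10 genes was -0.22, with 5 lower (5.67% of all tested genes). With the multiciliated covariate it was -0.29, with 0 lower (0.79% of all tested genes). The adipocyte markers given above had lower values in the libraries labelled KO as well, with a median of -0.46, and their part in the mitochondrial values was not tested.

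The cytosolic chaperonin TRiC and its helper prefoldin had lower values too, with a median of -0.29 over 13 tested genes. All 13 were lower (59.2% of all tested genes), and 1 was so at a limma unadjusted p under 0.05 (4.43% of all tested genes). That was Cct5, with 63.6 ± 1.15 FPKM in the libraries labelled KO and 80.1 ± 12.3 FPKM in WT (SD, n = 3 each). Pfdn2 and Cct3 had log2 differences of -0.29 and -0.32. This median depended on WT 3: it was -0.07 without that library and -0.14 after the length and GC correction. In the 12 tested genes of the HSP90 system the median was -0.10 and none had an unadjusted p under 0.05, with Sgta at -0.25 and Unc45a at -0.13, and the steroid receptor partner Fkbp5 at 0.39.

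Single chaperones stood out by size. Dnaja4, a cytosolic J protein, had 68.5, 72.9 and 38.2 FPKM in the libraries labelled KO, and 28.7, 5.95 and 6.7 FPKM in those labelled WT (log2 difference 2.33, standard error 0.57, limma adjusted p = 0.223). Its order over the libraries was nearly that of the multiciliated sums, WT 1 standing between KO 3 and the other WT libraries. Bag2, an HSP70 cofactor, had 6.52, 6.25 and 4.48 FPKM in the libraries labelled KO and 3.21, 2.12 and 1.88 FPKM in those labelled WT (log2 difference 0.99, limma adjusted p = 0.223). Hspa2, an HSP70 of the germ line and other tissues, had a log2 difference of 0.64. It had 9.52, 10.9 and 6.58 FPKM in the libraries labelled KO and 6.34, 4.52 and 5.2 FPKM in those labelled WT. Within each group it was highest in KO 2 and WT 1, where the spermatid markers were highest too. The part of germ cells in it was not tested. With the multiciliated covariate no gene of the 3 lists that hold Dnaja4, Bag2 and Hspa2 had an unadjusted p under 0.05. Of all tested genes 183 did, against 1700 without the covariate. That covariate differed between the groups, though WT 1 (46 FPKM) lay near KO 3 (55.8 FPKM). The part of multiciliated cells in the values of Dnaja4, Bag2 and Hspa2 was not tested. Without the covariate the medians were -0.14 over the 11 J proteins, -0.07 over the 8 BAG and exchange genes, 0.01 over the 7 further HSP70 and HSP110 genes and 0.09 over the 6 further small heat shock proteins. Among small heat shock proteins Hspb8 had -0.57 and Cryab, the alpha-B crystallin, 0.33. Bag3, a well-known HSF1 target, had 31.3 ± 2.32 FPKM in the libraries labelled KO and 32.1 ± 3.87 FPKM in WT (SD, n = 3 each; log2 difference -0.03, limma adjusted p = 0.921). The chaperones of the endoplasmic reticulum, a separate stress compartment, had a median of -0.14 over 11 genes, none at an unadjusted p under 0.05, among them Hspa5 at -0.13 and Hsp90b1 at -0.31. The 4 tested HSF relatives and partners, Hsbp1, Hsf2, Hsf3 and Hsf4, ran from -0.32 to 0.03.

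**Figure D5:**
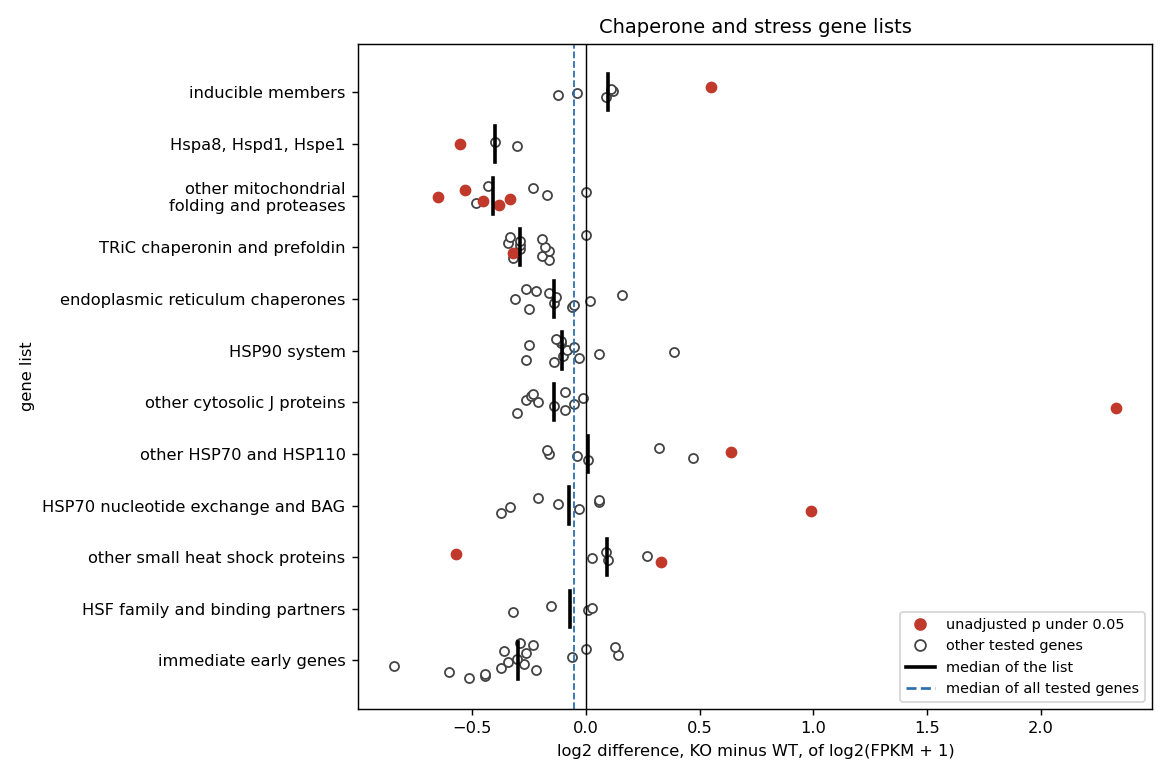
Log2 difference (KO minus WT) of each tested gene in each chaperone or stress list; filled points had a limma unadjusted p under 0.05, black bars are list medians, and the dashed line is the median of all tested genes. The inducible genes lie around 0 apart from Hsph1, the mitochondrial genes lie mostly below it with a median of -0.41, and Dnaja4 is the far point at 2.33.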

How the data were processed

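RNA extracted with TRIzol went into TruSeq stranded mRNA libraries, per the labels' protocols. The submitters' processing notes name STAR 2.5.4, Cufflinks, Cuffdiff 2.2.1 and mm10; annotation, filters and library scaling are not given there. The authors deposited 1 table with a column per library. Its values are taken to be FPKM that the authors made with Cufflinks or Cuffdiff, judging by the tools named and by the values, as no header states a unit. Low values showed no clear whole-read steps (11.2% to 21.8% of low genes at the commonest one), so depth is unknown and no counting interval is given.

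Where a symbol was repeated (24 of 21853 rows), the row of highest mean was kept. The test was limma 3.58.1 (R 4.3.3) on log2(FPKM + 1), comparing the 2 groups with a mean-variance trend over genes whose mean reached 1 FPKM, adjusted by Benjamini-Hochberg over 12539 genes at 0.05. Differences are KO minus WT, and this scale understates those of low genes. The fit was tested on simulated data. GENCODE vM21 on GRCm38, the assembly behind mm10, gave lengths and positions, and RefSeq the promoters. The genes and lists were chosen with earlier results of these data known. Other genes named were up to 3 per list with the smallest p, partners of the 10 (Hsp90ab1, Hspa9, Hspa4), Bag3, Hsp90b1 and Hspa5 irrespective of p, the 6 most alike genes and tested genes between Hsf1 and Zfp251. The 6 were taken after leaving out predicted genes, Riken clones, pseudogenes and small RNAs. Nothing states 1 mouse per library: the p-values reflect variation between libraries, which may be technical. Alternatives were other pseudocounts, filters and scalings, no trend, sample weights, a length and GC correction, a multiciliated covariate, a replicate block and each library left out.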

Additional observations from a re-analysis of the deposited data

How the results depend on the processing

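No heat shock gene passed the adjusted threshold under any alternative except with sample weights, where Hsph1 (log2 difference 0.62, limma adjusted p = 0.045) and Hspd1 (-0.42, limma adjusted p = 0.0445) did. In that setting 970 genes passed and 3914 had an unadjusted p under 0.05, and Zfp251 had 0.64. The weights were 3.15, 1.53 and 0.767 for the libraries labelled KO, and 4.02, 0.472 and 0.142 for those labelled WT. The WT side of these calls therefore rests mostly on WT 1. The unadjusted count was 974 at a mean of at least 5 FPKM and 183 with the multiciliated covariate, where the inducible median was 0.34. With 1 library left out, 0 to 482 genes passed (482 without WT 1) and 866 to 2195 had an unadjusted p under 0.05, with 866 without KO 1 and 882 without KO 2. Zfp251 ran from 0.65 to 0.78, and passed without WT 1. Left-out ranges that crossed 0 were -0.31 to 0.30 for Hspa1a, -0.10 to 0.43 for Hspa1b, -0.0014 to 0.18 for Dnajb1, -0.04 to 0.32 for Hspb1, -0.18 to 0.0003 for Hsp90aa1 and -0.04 to 0.07 for Hsf1. Hsp90aa1 had 0.07 and Hspa8 had 0.03 with quantile normalization, and Hspa1a had 0.09 with sample weights and 0.30 with the covariate. The causes were not tested. The filter at 5 FPKM leaves out Hspa1a and Zfp251. With 1 library left out, the difference in the score of inducible genes minus Hspa8, Hspd1 and Hspe1 ran from 0.24 to 0.79. It was 0.27 with quantile normalization and 0.41 with the length and GC correction. Whether the library numbers pair the samples cannot be settled with 3 libraries per group: the correlation of same-numbered deviations was 0.228, -0.2 and 0.22. With the replicate block 0 genes passed, 1714 had an unadjusted p under 0.05, the Zfp251 log2 difference was 0.72 (limma adjusted p = 0.0917), and no call changed.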
